A study of Mus musculus with 6 samples.

Results

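The genes described here are 9 adaptors and regulators of Ras signalling, chosen by name as rows of the deposited count files. These 9 are among 53657 gene names counted there. They are *Grb2*, *Shc1* and *Gab1*, which link receptors to Ras, the phosphatase gene *Ptpn11*, the ubiquitin ligase gene *Cbl*, the Ras-like GTPase gene *Rit1*, its degradation factor *Lztr1*, and *Shoc2* and *Ppp1cb*, whose products form a phosphatase complex that acts within the Ras pathway. The choice used no measured value, but it was made with earlier results of these data known. RNA was sequenced from undifferentiated spermatogonia (A_undiff) sorted from adult mouse testes as MCAM-bright, tdTomato+ cells 3 months after tamoxifen, with 3 WT and 3 MUT samples. WT mice carried *Gfra1-creERT2* and the inducible *tdTomato* reporter. MUT mice carried in addition 1 copy of the flox-and-replace *FR-Hras* G12V allele, in which Cre removes a wild-type *Hras* gene so that the mutant copy is expressed from the endogenous promoter. Both groups therefore shared tamoxifen, the Cre driver and the reporter, and the controls were littermates without the *FR-Hras* allele on a mixed background. Cre was limited to cells that express *Gfra1*, and the share of sorted cells that carried the mutant allele was not measured here.

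Receptor tyrosine kinases such as RET, the GDNF receptor that spermatogonial stem cells depend on, phosphorylate their own tails and docking proteins when a ligand binds. Adaptors with SH2 domains read these phosphotyrosines and bring the exchange factor SOS to the membrane, where it loads Ras with GTP. Germline gain-of-function changes in several of these genes cause Noonan syndrome and related RASopathies, the same disease family as the Costello syndrome caused by *HRAS* mutations. HRAS lies downstream of the receptor adaptors while sharing effectors and feedback with them, and with the G12V change it stays bound to GTP.

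Values per sample are given in the order of replicates 1, 2 and 3. The 6 libraries held between 22729292 and 23550433 fragments counted on genes. *Hras* itself gave 1300, 1407 and 1542 counts for WT and 1600, 1594 and 1426 for MUT, and these whole-gene counts do not separate the alleles. All 12 genes listed as markers of undifferentiated spermatogonia were detected in every sample. Their summed level ran from 3481 to 4074 CPM (library-scaled counts after TMM normalisation) in WT and from 3615 to 4095 CPM in MUT. The list includes *Dazl* and *Ddx4*, which other germ cells also express, and the sorting marker *Mcam*, at means of 897, 504 and 626 CPM. The sum therefore does not measure the purity of the sort. Markers of other cells were also present in every sample. The 6 macrophage markers summed to between 503 and 731 CPM in WT and between 420 and 559 CPM in MUT, the 6 spermatid markers to between 869 and 1476 CPM in WT and between 601 and 1147 CPM in MUT, and the 6 Leydig cell markers to between 12.9 and 21.1 CPM except in MUT replicate 3, at 67.3 CPM. The 5 markers of differentiating spermatogonia, *Kit* among them, summed to between 511 and 575 CPM in WT and between 601 and 743 CPM in MUT, without overlap. Taken singly, only *Stra8* separated the groups (159 to 175 CPM in WT, 185 to 242 CPM in MUT), while *Kit*, *Sohlh1*, *Dmrtb1* and *Prdm9* overlapped. Of all genes tested, 4.69% were higher in every MUT sample. WT replicate 3 had the highest macrophage and spermatid sums and the lowest sum for undifferentiated spermatogonia. It also had the highest marker sums for meiotic cells (660 CPM), Sertoli cells (134 CPM) and T and B lymphocytes (87.1 CPM). Its endothelial marker sum was the lowest (35.8 CPM), and MUT replicate 3 had the highest sums for Leydig and peritubular myoid cells. WT replicate 3 stood apart for other genes as well, as described below.

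All 9 genes were expressed in every sample and passed the expression filter of edgeR. When counts were divided by the exon length of each gene to give FPKM (CPM per kb of exon), 8 of the 9 genes lay between the 77.6th and the 88.7th percentile of the 19656 genes tested, whose median level was 3.90 FPKM with an upper quartile of 13.1 FPKM. *Rit1* was lower, at the 55.6th percentile. By mean length-scaled level over the 6 samples the order was *Lztr1* at 27.5 FPKM, *Grb2* at 26.8 FPKM, *Shoc2* at 19.3 FPKM, *Shc1* at 17.8 FPKM, *Ppp1cb* at 16.9 FPKM, *Ptpn11* at 15.9 FPKM, *Cbl* at 15.8 FPKM, *Gab1* at 14.8 FPKM and *Rit1* at 5.14 FPKM. The ranges of neighbours in this order overlapped except between *Grb2* (lowest 25.2 FPKM) and *Shoc2* (highest 20.6 FPKM), and between *Gab1* (lowest 13.8 FPKM) and *Rit1* (highest 5.98 FPKM). The order depended in part on the length used, at the top of the list above all. With the longest coding transcript in place of all exons, *Ppp1cb* and *Shc1* were both at 31.0 FPKM and led the list. *Grb2* followed at 28.8 FPKM and *Lztr1* at 25.2 FPKM. *Gab1* and *Rit1* stayed last, but *Rit1* was then at 13.8 FPKM, against 5.14 FPKM with all exons. It lay just below *Gab1*, so the wide gap between these genes was seen with all exons only. In a sorted population, more cells of a type and more RNA per cell cannot be told apart in such levels.

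**Figure D1:**
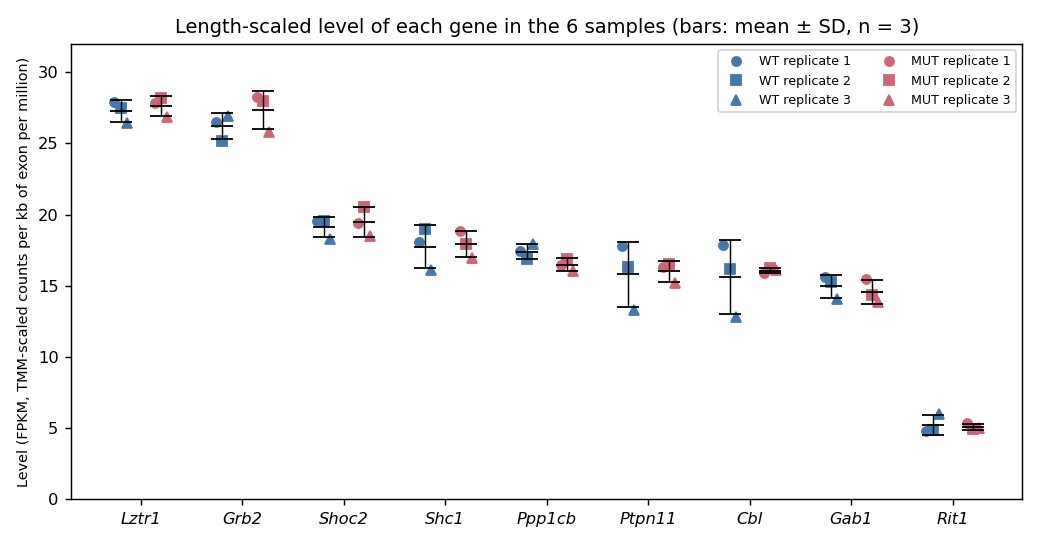
Length-scaled level (FPKM, linear axis from 0) of the 9 genes in each of the 6 samples, ordered by mean level, with WT in blue, MUT in red, a symbol for each replicate number, and bars for the mean ± SD of 3 samples. The WT and MUT points overlap for each gene, *Lztr1* and *Grb2* lie above 25 FPKM in every sample, and *Rit1* lies below 6 FPKM.

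Among the adaptors, *Grb2* encodes the SH2 and SH3 protein that carries SOS to activated receptors (chromosome 11, 115644045 to 115708597, minus strand in GRCm38). The WT samples gave 1769, 1718 and 1858 counts, and the MUT samples 1886, 1883 and 1763. MUT replicates 1 and 2 were the highest, but MUT replicate 3 fell among the WT samples. The level was 26.2 ± 0.915 FPKM for WT against 27.4 ± 1.33 FPKM for MUT (SD, n = 3 each), a log2 fold change of 0.06 (standard error 0.067, edgeR unadjusted p = 0.375). Without MUT replicate 3 the 3 WT samples lay below both remaining MUT samples, at a log2 fold change of 0.10 (edgeR unadjusted p = 0.21), where 26.1% of all genes tested separated in the same way.

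*Shc1*, whose product is phosphorylated by receptors and then binds GRB2, spans bases 89418443 to 89430027 of chromosome 3 (plus strand). In WT it had 2338, 2512 and 2149 counts, and in MUT 2433, 2338 and 2240. The WT samples held both the highest and the lowest value, and the MUT samples lay between them after normalisation. The level was 17.7 ± 1.50 FPKM for WT against 17.9 ± 0.939 FPKM for MUT (SD, n = 3 each, log2 fold change 0.015, standard error 0.081). *Gab1*, a docking protein that binds GRB2 and recruits SHP2 and PI3 kinase, spans bases 80764438 to 80880519 of chromosome 8 (minus strand). Its counts were 1812, 1816 and 1688 in WT and 1798, 1683 and 1646 in MUT. Its log2 fold change was -0.04 (standard error 0.073), and the log2 ratio of MUT to WT was below 0 in the pairs numbered 1, 2 and 3, at -0.011, -0.088 and -0.020, while the ranges of the groups overlapped (70.4 to 78.6 CPM in MUT and 71.3 to 79.2 CPM in WT). The log2 fold change was -0.0036 without MUT replicate 3, -0.018 without WT replicate 1, -0.084 without WT replicate 3 and -0.092 without MUT replicate 1.

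*Ptpn11* is the gene most often mutated in Noonan syndrome, and encodes the phosphatase SHP2, which promotes Ras activation downstream of receptors. It spans bases 121130533 to 121191397 of chromosome 5 (minus strand). The WT samples gave 3053, 2856 and 2359 counts, and the MUT samples 2798, 2859 and 2660. WT held both ends of the range, and its SD was larger (15.8 ± 2.29 FPKM in WT and 16.0 ± 0.736 FPKM in MUT, SD, n = 3). The log2 fold change was 0.020 (standard error 0.105, edgeR unadjusted p = 0.857). *Cbl* encodes a ubiquitin ligase that marks activated receptors for degradation (chromosome 9, 44142976 to 44234049, minus strand). In WT it had 5050, 4673 and 3740 counts, and in MUT 4490, 4614 and 4642. The 3 MUT samples were nearly equal, with a coefficient of variation of 0.976%, below the 1.48% that counting error alone would give, whereas the WT samples varied by 16.5%. The level was 15.6 ± 2.58 FPKM for WT against 16.1 ± 0.157 FPKM for MUT (SD, n = 3 each, log2 fold change 0.04, standard error 0.114).

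*Rit1* encodes a Ras-like GTPase (chromosome 3, 88716838 to 88731049, plus strand). It had the fewest counts of the 9 genes. Its counts were 352, 366 and 457 in WT and 394, 366 and 376 in MUT. WT replicate 3 was the highest sample, and the other 5 lay close together. The level was 5.20 ± 0.681 FPKM for WT against 5.08 ± 0.225 FPKM for MUT (SD, n = 3 each, log2 fold change -0.034, standard error 0.122). *Lztr1*, which presents RIT1 and other Ras proteins to a CUL3 ubiquitin ligase for degradation, spans bases 17508968 to 17526331 of chromosome 16 (plus strand). It was the steadiest gene over the 6 samples, with 1990, 2004 and 1946 counts for WT and 1982, 2023 and 1957 for MUT. The highest normalised value was 1.07 times the lowest. Its level was 27.3 ± 0.782 FPKM for WT against 27.6 ± 0.678 FPKM for MUT (SD, n = 3 each, log2 fold change 0.018, standard error 0.061).

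*Shoc2*, the leucine-rich repeat scaffold of the complex with MRAS and PP1, spans bases 53944306 to 54033268 of chromosome 19 (plus strand). The WT samples gave 1882, 1920 and 1819 counts, and the MUT samples 1867, 1992 and 1817, so that MUT replicate 2 was the highest and the groups overlapped. The level was 19.1 ± 0.724 FPKM for WT against 19.5 ± 1.04 FPKM for MUT (SD, n = 3 each, log2 fold change 0.027, standard error 0.068). *Ppp1cb*, a catalytic subunit of PP1, spans bases 32458843 to 32517433 of chromosome 5 (plus strand). In WT it had 4350, 4303 and 4622 counts, and in MUT 4112, 4255 and 4088. MUT replicates 1 and 3 were the lowest samples, and MUT replicate 2 lay within 1 CPM of WT replicate 2, at 185 against 184 CPM. Its log2 fold change of -0.08 was the farthest from 0 among the 9 genes with all 6 samples (standard error 0.064, edgeR unadjusted p = 0.247, exact two-sided permutation p = 0.2). Without WT replicate 1 *Cbl* was farther from 0 (0.14), and without WT replicate 3 *Ptpn11* was (-0.09). Without MUT replicate 1 *Gab1* was (-0.092, beside -0.086 for *Ppp1cb*), and without MUT replicate 3 *Grb2* was (0.10). Without WT replicate 2 the *Ppp1cb* groups no longer overlapped, and the same held without MUT replicate 2, at 17.0% and 12.4% of all genes tested.

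The comparison of MUT with WT asked whether induction of *Hras* G12V went with a change in these genes. None of the 9 genes had an adjusted p under 0.1 in edgeR's quasi-likelihood test, where 0.0102% of all genes tested did (2 of 19656), or 0.0661% with the replicate number as a block. Each of the 9 had an adjusted p of 0.998. None had an unadjusted p under 0.05, which 2.78% of all genes tested had, and DESeq2 and limma voom gave 0 of 9 at either level. For none of them did the groups separate fully, while 7.69% of all genes tested did so, 4.69% with MUT higher and 3.0% with MUT lower. The exact two-sided permutation test cannot go below 0.1 with 3 samples per group, and the 9 genes gave values from 0.2 to 1. The log2 fold change was above 0 for 6 genes and below 0 for 3, with a median of 0.018 beside 0.0066 over all genes tested. In absolute size the median was 0.034, beside 0.061 over the 10583 tested genes with a mean of at least 10 CPM.

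Over the 9 genes, the 95% confidence intervals of the log2 fold change reached down to -0.31 for *Rit1* and up to 0.30 for *Cbl*, which correspond to levels in MUT of 0.805 and 1.23 times those in WT. The narrowest interval belonged to *Lztr1*, from -0.12 to 0.16. Each interval holds for its own gene only.

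**Figure D2:**
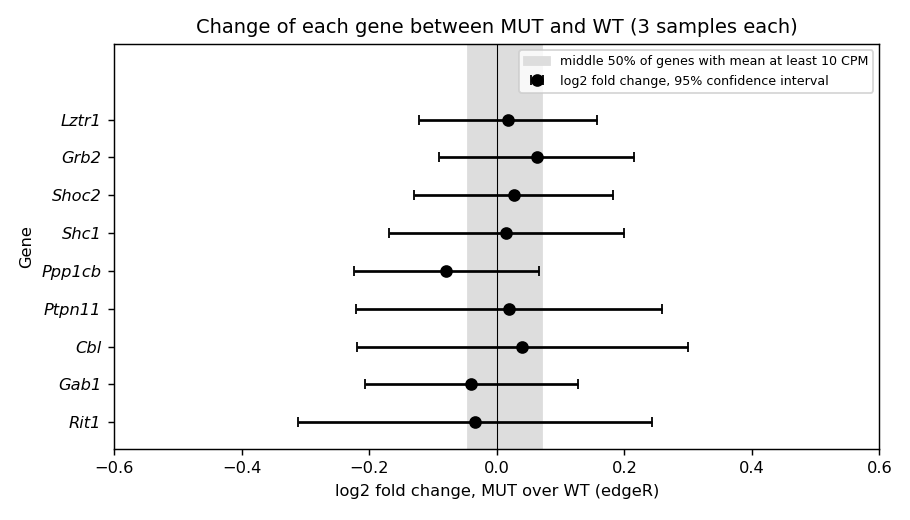
Log2 fold change of MUT over WT from edgeR (points, linear axis) with 95% confidence intervals (bars) for the 9 genes, from 3 WT and 3 MUT samples, over a grey band that spans the middle 50% of the genes with a mean of at least 10 CPM, from -0.045 to 0.071. Each interval crosses 0, and the farthest ends are -0.31 for *Rit1* and 0.30 for *Cbl*.

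For *Cbl*, *Ptpn11*, *Rit1* and *Shc1* the highest and the lowest of the 6 samples were both WT. WT replicate 3 held the highest or the lowest value for 7 of the 9 genes, which was also so for 60.3% of the 10583 genes with a mean of at least 10 CPM. Against the mean of the other 5 samples on the log2 CPM scale, it was lower for *Cbl* by a difference of -0.36, for *Ptpn11* by -0.30 and for *Shc1* by -0.17, and higher for *Rit1* by 0.27 and for *Ppp1cb* by 0.10. In WT replicate 1 *Cbl* (0.22) and *Ptpn11* (0.20) departed upward and *Rit1* downward (-0.12). No MUT sample departed from the other 5 by more than 0.11 in either direction for any of the 9 genes. Within WT the coefficient of variation was 16.5% for *Cbl*, 14.5% for *Ptpn11* and 13.1% for *Rit1*, and within MUT it was 0.976%, 4.60% and 4.44%. It was higher in WT for 6 of the 9 genes, and for 61.2% of the genes with a mean of at least 10 CPM.

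Over the 10583 genes with a mean of at least 10 CPM, departures in these WT samples moved with exon length. In WT replicate 3 the median departure was 0.13 over the quartile of genes with the shortest exons (57 to 2914 bases) and -0.17 over the quartile with the longest (7052 to 123179 bases), and in WT replicate 1 it was -0.073 and 0.074. *Cbl*, with 12345 bases of exon, and *Ptpn11*, with 7492, belong to the longest quartile and followed it. *Ppp1cb*, with 10913 bases, belongs to it too and went the other way in WT replicate 3. *Rit1*, with 3229 bases, belongs to the second quartile, whose medians were 0.0043 in WT replicate 3 and -0.025 in WT replicate 1, and so departed further than its length class in both. WT replicate 3 also had the highest macrophage, spermatid, meiotic, Sertoli and lymphocyte marker sums and the lowest sum for undifferentiated spermatogonia. The part of length or of other cells in these values was not tested. Without WT replicate 3 the log2 fold changes turned to -0.09 for *Ptpn11*, -0.08 for *Cbl* and 0.08 for *Rit1* (edgeR unadjusted p = 0.207, 0.189 and 0.482), and *Rit1* then separated the groups, as did 19.0% of all genes tested.

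**Figure D3:**
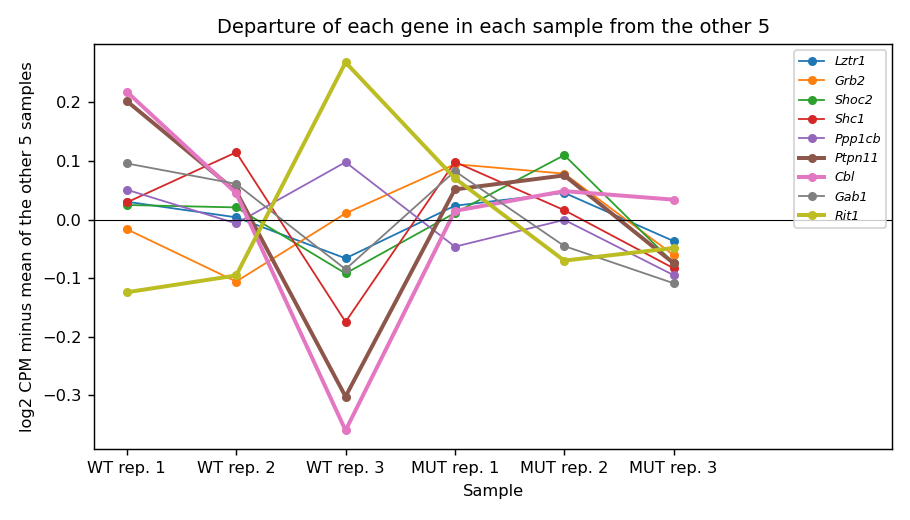
Departure of each of the 9 genes in each sample from the mean of the other 5 samples (log2 CPM, linear axis), with a line for each gene and thicker lines for *Cbl*, *Ptpn11* and *Rit1*. The points spread widest in WT replicate 3, from -0.36 for *Cbl* to 0.27 for *Rit1*, and lie within 0.11 of 0 in the 3 MUT samples.

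Across the 6 samples, *Ptpn11* and *Cbl* followed each other (Pearson r = 0.95), while *Rit1* ran against *Cbl* (r = -0.94) and *Ptpn11* (r = -0.86). Of the 36 pairs among the 9 genes 24 had r above 0, with a median of 0.35. These are descriptions over 6 points that share library, depth and the departure of WT replicate 3. The gene with the profile most like each one, of 10582 compared, was *Exog* for *Ptpn11* (r = 0.996), *Tnrc6a* for *Cbl* (r = 0.998), *Uri1* for *Rit1* (r = 0.998), *Ap2a2* for *Shoc2* (r = 0.996), *Sf3b1* for *Lztr1* (r = 0.996), *Susd6* for *Shc1* (r = 0.994), *Fam20c* for *Gab1* (r = 0.992), *Hnrnpa1* for *Grb2* (r = 0.987) and *Rbm48* for *Ppp1cb* (r = 0.981). The number of genes above r = 0.9 ran from 42 for *Ppp1cb* and 72 for *Grb2* to 727 for *Ptpn11* and 873 for *Cbl*. Each named gene is the highest of 10582 values over 6 samples, so a high r is no evidence of a relation. How many genes would exceed 0.9 without any relation was not tested.

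The promoters of *Ptpn11* and *Cbl*, which varied together, and of *Rit1*, which varied against them, are shown from 250 bases before to 50 bases after the RefSeq transcription start (GRCm38.p6). Each is written 5′ to 3′ on the strand of its gene, and capitals mark matches to the GC box, the letters GGGCGG on either strand. The *Ptpn11* window is chr5:121191348-121191647 on the minus strand, the *Cbl* window is chr9:44233997-44234296 on the minus strand, and the *Rit1* window is chr3:88716604-88716903 on the plus strand.
Ptpn11: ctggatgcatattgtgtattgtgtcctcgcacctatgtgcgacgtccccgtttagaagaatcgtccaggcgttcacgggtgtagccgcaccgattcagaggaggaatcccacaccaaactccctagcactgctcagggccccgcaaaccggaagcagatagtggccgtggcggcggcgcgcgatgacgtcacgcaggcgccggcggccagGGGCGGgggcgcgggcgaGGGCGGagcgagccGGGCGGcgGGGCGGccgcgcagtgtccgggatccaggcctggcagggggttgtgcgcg
Cbl: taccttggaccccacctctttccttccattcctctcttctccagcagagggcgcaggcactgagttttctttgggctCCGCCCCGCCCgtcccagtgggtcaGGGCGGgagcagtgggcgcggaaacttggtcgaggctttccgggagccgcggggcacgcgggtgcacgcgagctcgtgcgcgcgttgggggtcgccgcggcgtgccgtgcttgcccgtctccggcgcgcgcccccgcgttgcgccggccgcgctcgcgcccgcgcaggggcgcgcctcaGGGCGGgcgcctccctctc
Rit1: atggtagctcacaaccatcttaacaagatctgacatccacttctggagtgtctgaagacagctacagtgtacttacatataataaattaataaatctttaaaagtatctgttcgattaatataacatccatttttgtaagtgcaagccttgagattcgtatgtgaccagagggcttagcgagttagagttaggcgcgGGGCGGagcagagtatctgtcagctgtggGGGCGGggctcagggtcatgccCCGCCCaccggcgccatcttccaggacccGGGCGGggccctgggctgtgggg

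Each of the 3 windows held 4 GC boxes, although *Cbl* (74.0% G and C, 43 CpG) and *Ptpn11* (68.7%, 37 CpG) were richer in CpG than *Rit1* (50.3%, 12 CpG). The table of 32851 windows of the same length had a median of 52.7% G and C and 7 CpG. For the 9 genes it held 13 windows, 11 of them above that median in G and C and 10 above it in CpG. A GC box stood in 9 of the 13 windows, for every gene but *Grb2*, and in 35.7% of all windows. Both *Grb2* windows (chr11:115699485-115699784 and chr11:115699879-115700178) lie inside the gene, whose 5′ end is at base 115708597, and neither covers that end. Another *Shoc2* window (chr19:53944626-53944925) lies inside its gene, which starts at base 53944306. The same holds for a *Shc1* window (chr3:89421371-89421670), whose gene starts at base 89418443. The *Lztr1* window begins at base 17508962, close to the gene start at base 17508968, so most of it lies inside the gene. The *Gab1* windows overlap each other. The letters CCGGAAGT, an ETS site, were found in 2 of the 13 windows (*Shoc2* and *Shc1*) and in 3.89% of all windows, TGACGTCA, a cyclic AMP response element, in 1 window (*Ptpn11*) and in 1.79% of all, CCAAT in 6 windows of 4 genes and in 37.4% of all, and TATAAA in 1 window (*Grb2*) and in 13.6% of all. Both strands were searched, and no matches of different motifs overlapped in these 13 windows. A match is a description of the letters and no evidence of binding.

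Paralogs of the 9 genes show which member of each small family had the most RNA in the sorted samples. These samples also held markers of other cells, such as macrophages, and their part in the paralog levels was not tested. *Shc1* made up 90.9 ± 1.20% (SD, n = 3) of the length-scaled level of the SHC family in WT and 90.4 ± 0.729% (SD, n = 3) in MUT, with *Shc2*, *Shc3* and *Shc4* each at a mean below 1 FPKM in both groups. *Grb2* made up 88.0 ± 0.286% for WT against 87.8 ± 1.29% for MUT (SD, n = 3 each) of its sum with *Grap* and *Grap2*. *Rit1* made up 99.9% on average, and its neuronal paralog *Rit2*, with 1 count in each of 2 WT libraries and 0 in the other 4, did not pass the filter. Here the named gene was the main transcript of its family in the sorted samples.

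*Cbl* and *Gab1* shared their families with a second gene. *Cbl* took 63.9 ± 2.21% for WT against 63.0 ± 1.45% for MUT (SD, n = 3 each), and the related ligase gene *Cblb* was at 8.59 ± 0.831 FPKM in WT and 9.25 ± 0.512 FPKM in MUT (SD, n = 3), while *Cblc* had between 6 and 17 counts in each library. *Gab1* took 65.6 ± 1.63% for WT against 65.2 ± 1.94% for MUT (SD, n = 3 each), beside *Gab2* at 5.18 and 5.36 FPKM. *Gab3* was lower in each MUT sample than in any WT sample, at 2.68 ± 0.215 FPKM in WT and 2.39 ± 0.037 FPKM in MUT (SD, n = 3), but with an edgeR unadjusted p of 0.227. It was the 1 paralog of 12 tested whose groups did not overlap, near the share of 7.69% over all genes tested.

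*Ppp1cb* had the lowest length-scaled level of the PP1 catalytic subunits. *Ppp1ca* was at 314 ± 5.52 FPKM in WT and 310.1 ± 39.1 FPKM in MUT, and *Ppp1cc* at 31.5 ± 0.879 FPKM and 32.3 ± 1.96 FPKM (SD, n = 3 each), so that *Ppp1cb* made up 4.79 ± 0.151% and 4.62 ± 0.468% (SD, n = 3) of the family. By the longest coding transcript its share was 8.42%. By counts, not divided by length, it made up 25.5% and exceeded *Ppp1cc*, which had 2401, 2510 and 2624 counts for WT and 2600, 2653 and 2404 for MUT. *Ptpn11* took 72.0 ± 6.62% (SD, n = 3) of its sum with *Ptpn6* in WT and 77.3 ± 4.30% (SD, n = 3) in MUT. The share was 74.9%, 76.8% and 64.5% for WT, and for MUT it was 80.3%, 79.1% and 72.4%. The difference of 5.23 percentage points was 1.45 without WT replicate 3 and 7.69 without MUT replicate 3. *Ptpn6* encodes SHP1, the phosphatase best known from blood cells, and gave 383, 323 and 486 counts for WT and 256, 282 and 380 for MUT. The macrophage markers summed to 570.1, 503 and 731 CPM in the WT samples and to 420, 507 and 559 CPM in the MUT samples, with the highest value of both in WT replicate 3 and the lowest of both in MUT replicate 1, and their part in the *Ptpn6* level was not tested. For all 7 families the groups overlapped (exact two-sided permutation tests, p from 0.4 to 1, each 1 after Benjamini-Hochberg adjustment over the 7).

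**Figure D4:**
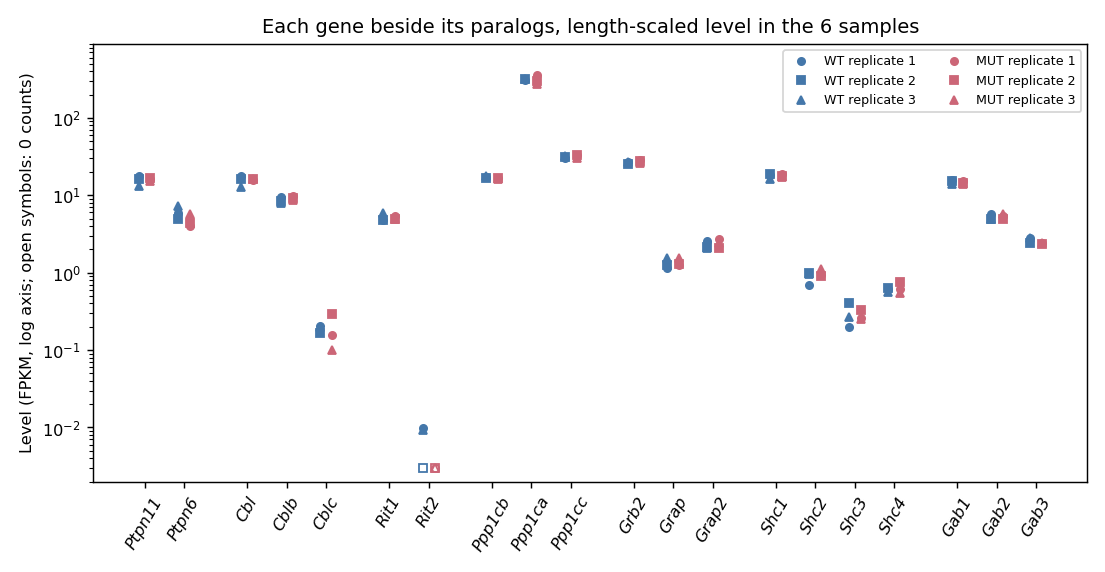
Length-scaled level (FPKM, log axis) of the 7 genes that have paralogs, each beside those paralogs, in the 6 samples, with WT in blue, MUT in red, a symbol for each replicate number and open symbols at the foot for libraries with 0 counts. *Shc1*, *Grb2* and *Rit1* stand well above their paralogs, whereas *Ppp1cb* lies below *Ppp1ca* at 314 FPKM and *Ppp1cc* at 31.5 FPKM in WT.

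The surrounding pathway was read from lists of genes with known roles. Of 18 other RASopathy genes, among them *Sos1*, *Braf* and *Nf1*, all were tested and 0 passed the adjusted threshold in edgeR or an unadjusted p of 0.05, with a median log2 fold change of 0.036. The changes farthest from 0 were those of *Mras*, the partner of SHOC2 (-0.19), and of *Hras* itself (0.14), and both overlapped between the groups. Of 24 tested receptor adaptors and docking proteins outside the 9 genes, 0 passed the adjusted threshold and 1 had an unadjusted p under 0.05, *Grb10*, an adaptor that restrains insulin and IGF receptors (85.4 ± 10.4 CPM in WT and 106 ± 19.2 CPM in MUT, SD, n = 3, edgeR unadjusted p = 0.047). *Dok4* (log2 fold change 0.20) and *Grb7* (0.10) were higher in every MUT sample. Over all genes tested 2.78% had such a p and 4.69% were higher in every MUT sample, so these counts are near the background. The median of that list was 0.027. Of 15 binding partners, 3 of them also in the RASopathy list, 0 passed either threshold, with a median of 0.032. After *Mras*, the farthest from 0 was *Sirpa*, a membrane protein that binds SHP2 (92.1 ± 12.2 CPM in WT, 82.8 ± 5.46 CPM in MUT, SD, n = 3, log2 fold change -0.15, with overlap).

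Of 16 receptors 0 passed the adjusted threshold. *Kit*, the receptor of differentiating spermatogonia, had a log2 fold change of 0.36 (edgeR unadjusted p = 0.0497). *Erbb2* had a log2 fold change of 0.22 (edgeR unadjusted p = 0.048), and no other receptor had an unadjusted p under 0.05, which 2.78% of all genes tested had. *Erbb2*, at 65.8 ± 7.33 CPM in WT and 76.5 ± 4.72 CPM in MUT (SD, n = 3), and *Fgfr3* (0.23) were higher in every MUT sample, as were 4.69% of all genes tested. *Kit* overlapped between the groups. The sum of the 5 differentiating markers that includes it did not, although only *Stra8* among them separated the groups on its own. The part of such cells in these values was not tested. Of 16 genes that respond to ERK, 0 passed the adjusted threshold, 4 had a log2 fold change above 0 and 12 below, and the median was -0.15, beside 0.0066 over all genes tested. Of these 16, 2 had an unadjusted p under 0.05 and 1 was lower in every MUT sample, beside 2.78% and 3.0% of all genes tested. *Spry1*, a feedback inhibitor of receptor signalling, was lower in every MUT sample (23.2 ± 1.36 CPM in WT and 19.1 ± 1.40 CPM in MUT, SD, n = 3, log2 fold change -0.28, edgeR unadjusted p = 0.021), and the ERK phosphatase gene *Dusp6* was at 131 ± 5.13 CPM and 110.01 ± 15.1 CPM with overlap (-0.25, edgeR unadjusted p = 0.034). The adjusted p was 0.998 for each gene named from these lists.

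The way fragments were counted limits some of these levels. Fragments that overlapped several genes or aligned to several places were left out, and strand was disregarded. For *Ppp1cb* 17.5% of its exon bases also lie in exons of a neighbouring gene on the same strand, for *Gab1* 5.23% and for *Shoc2* 2.31% lie in exons of a gene on the opposite strand, and for the other 6 genes none do. Words of 50 bases were compared between transcripts of a later GENCODE release than the one used for the counts. Of these words, 16.4% for *Ppp1cb*, 7.54% for *Grb2* and 7.09% for *Shc1* also occur in transcripts of other genes, against 0% for *Rit1* and 0.066% for *Ptpn11*. All shared words of *Ppp1cb* lie in 1 other gene, so they may be the same stretch as its exon overlap. Fragments from such stretches can be missing from the counts, and how many were lost was not tested.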

How the data were processed

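RNA-seq counts of 6 samples, 3 WT and 3 MUT, were grouped by sample title. The authors sorted the cells, made TruSeq stranded mRNA libraries and sequenced them as 50-base pairs. The authors deposited unnormalised fragment counts for each gene name, made with featureCounts 1.6.2 on GENCODE M17 with a tdTomato entry, without strand, multi-mapping or ambiguous fragments. The submitters' processing notes name STAR and GRCm38.p6. The study gives 3 mice per group, and samples were taken as separate mice.

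The 6 columns were joined by name. In R 4.3.3, edgeR 4.0.16 normalised by TMM, kept 19656 genes with filterByExpr and compared MUT with WT by the quasi-likelihood test with Benjamini-Hochberg adjustment over all of them at an FDR of 0.1. The standard error came from the fold change and its F statistic. FPKM is TMM-scaled CPM per kb of exon. Exact permutation tests were two-sided over the 20 assignments of samples. DESeq2 1.42.0, limma 3.58.1 and further alternatives are given at the end. The fit was tested on simulated data at an FDR of 0.1. It called 40.2% of the 1.5-fold changes, 65.8% of the 2-fold changes and 96.0% of the 4-fold changes. False calls numbered 11, 23 and 16, beside 78, 131 and 190 changed genes called.

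Samples with the same number deviated together from their group means over 10583 genes (r = 0.30, 0.16 and 0.40 for pairs 1, 2 and 3), while WT replicate 2 with MUT replicate 1 reached 0.33. The labels give the numbers, and no source used here ties a number to a litter. The fit with the replicate number as a block was run beside the main one.

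Genes named from lists were those past the adjusted threshold, those with groups apart, those with an edgeR unadjusted p under 0.05, and up to 2 largest changes otherwise. The 9 genes and the lists were chosen with earlier results of these data known. Depth allows a floor of 3 counts, between 0.127 and 0.132 CPM, for counting error only.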

Additional observations from a re-analysis of the deposited data

How the results depend on the processing

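None of the 9 genes was called under any of the alternatives run: DESeq2, DESeq2 size factors, limma voom, no filter, an FDR of 0.05, a minimum of 10 counts in every sample, the replicate block, and each sample left out. The count over all genes, 2 in edgeR, was 1 at an FDR of 0.05, 9 in DESeq2, 4 in limma voom, 5 without a filter, 0 with at least 10 counts in every sample (479 at an unadjusted p under 0.05), and 0 to 6 with a sample left out. It was 0 without MUT replicate 2 (292 at an unadjusted p under 0.05), 1 without MUT replicate 1, 5 without WT replicate 3 and 6 without MUT replicate 3. With the replicate number as a block it was 13 in edgeR and 55 in DESeq2. The cause of these differences was not tested. In edgeR the block called none of the 114 tested genes among the 9, their paralogs, the lists and the most alike genes (lowest adjusted p = 0.243 for *Kit*). DESeq2, run without that expression filter, held 116 of these genes. With the block it gave 112 of them an adjusted p and called none (lowest DESeq2 adjusted p = 0.132 for *Kit*).

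Of 117 log2 fold changes of the 9 genes under an alternative, 105 kept their sign and 12 turned, all with a sample left out. Without WT replicate 3 they were -0.0902 for *Ptpn11*, -0.0047 for *Shoc2*, -0.0844 for *Cbl*, -0.0050 for *Lztr1*, 0.0792 for *Rit1* and -0.051 for *Shc1*. Without MUT replicate 1 they were -0.0012 for *Ptpn11* and -0.029 for *Shc1*, and without MUT replicate 2 they were -0.018 for *Ptpn11*, -0.027 for *Shoc2*, -0.010 for *Lztr1* and -5.4e-05 for *Shc1*. With single samples left out the highest values were 0.106 for *Ptpn11*, 0.0647 for *Shoc2*, 0.140 for *Cbl*, 0.0389 for *Lztr1* and 0.0557 for *Shc1*, and the lowest for *Rit1* was -0.101. The number of the 9 genes whose groups did not overlap, 0 with all samples, ran from 0 to 1 with a sample left out. The difference of MUT from WT in the *Ppp1cb* share of its family was -0.17 percentage points by length-scaled level and -0.83 by counts. The length of the longest coding transcript was chosen as an alternative after seeing the data and moved no such difference by more than the spread between samples. Each of the 9 genes had at least 352 counts in every library.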
